A study of Mus musculus with 15 samples.

Results

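Mouse ileal organoids that had been exposed for 24 h to a mouse-like bile acid pool in which 10% of the bile acids were 12α-hydroxylated (M10) were compared with organoids given vehicle. The comparison took the 6 libraries that the labels title M10 a, b and c and Vehicle a, b and c, out of 15 in the series, and 13159 of the 23420 gene symbols had enough counts to be tested. Organoids are closed epithelial structures grown from intestinal crypts. These were primary cultures from the ileal crypts of C57BL/6 mice in Matrigel and IntestiCult medium, split at day 10 and used at passage 2. On day 14 the structures were broken by pipetting so that the apical side met the medium. They were then kept in DMEM with 0.2% bovine serum albumin and either the pool or vehicle, so albumin and the opened lumen were common to M10 and Vehicle. The other libraries came from a mouse-like pool with 90% 12α-hydroxylated bile acids (M90) and from human-like pools with 10% (H10) or 90% (H90), with 3 libraries each. The labels give neither the bile acids in each pool nor their concentration. They do not say whether a, b and c were separate animals or cultures. Each p-value below therefore sets a difference against the spread between libraries within groups, estimated from all 15 libraries, which may not be the spread between animals.

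Bile acids carry a hydroxyl group at carbon 12 when the liver enzyme CYP8B1 has acted on them, and mice and humans differ in the other acids of the pool. In ileal enterocytes bile acids are taken up by the apical transporter ASBT, bound in the cell by FABP6 and exported at the basolateral side by OSTα and OSTβ. They activate the nuclear receptor FXR (Nr1h4), which induces the hormone FGF15 and the corepressor SHP (Nr0b2). Some bile acids also bind the vitamin D receptor, the pregnane X receptor or a membrane receptor. The ileal epithelium renews itself from crypt stem cells, whose daughters divide, stop dividing and become absorptive enterocytes or secretory cells.

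M10 libraries held 21585731 to 28989526 counts on genes and Vehicle libraries 15712320 to 27136476. Symbols with a count numbered 13701 to 14105 in M10 and 14540 to 14830 in Vehicle, and those at exactly 1 count 213 to 246 in M10 and 479 to 552 in Vehicle. The same ranges were 14768 to 14903 and 466 to 603 in M90, and 14606 to 14730 and 450 to 570 in H10. In H90 they were 13517 to 14542 and 221 to 297. M10 thus had fewer symbols at low counts than M90, H10 and Vehicle, which bears on genes with no count in M10. The cause of this was not tested. The 10 epithelial markers made up 1.67% to 1.72% of counts in M10 and 1.57% to 1.62% in Vehicle, and none was at 0. The 15 libraries fell into 2 sets by transcripts of cells that do not belong to an epithelial culture: Mup20, a liver transcript, had 0.498, 0.555 and 0.458 CPM in M10 libraries, against 25.1, 24.9 and 21.6 CPM in Vehicle libraries, and Col1a1, a collagen of fibroblasts, had 6.36, 6.83 and 6.21 CPM in M10 libraries, against 0, 0.0683 and 0 CPM in Vehicle libraries. All M10 and M90 libraries were in the set with low Mup20, and all Vehicle and H10 libraries in the set with high Mup20, so library set and treatment cannot be told apart in M10 against Vehicle. H90 had libraries in both sets, and a fit with set as a term, in which H90 alone sets the term, is given where it changes a result. The 22 liver transcripts summed to 0.0139% to 0.0148% of counts in M10 and 0.0344% to 0.0434% in Vehicle, with none at 0 in all libraries of either group. Of 13 mesenchymal markers, 3 had no count in any Vehicle library and none lacked counts in M10, with sums of 0.00189% to 0.00218% in M10 and 0.0015% to 0.00181% in Vehicle. Of 13 immune markers, 7 had no count in M10 and 5 none in Vehicle.

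Most of the measured transcriptome differed between M10 and Vehicle. Levels are in CPM, counts scaled to the size of the library, differences are log2 of M10 over Vehicle, and a gene was called at a Benjamini-Hochberg adjusted p under 0.05 from edgeR's quasi-likelihood test over all tested genes. By that rule 8482 of 13159 genes were called (64.5%), 4103 of them higher in M10 (31.2% of tested genes) and 4379 lower (33.3%). A difference of at least 2-fold was found for 1249 called genes that rose (9.49%) and 1728 that fell (13.1%), and the median over all tested genes was -0.03. With so large a background, a call by itself sets no gene apart, and the size of each change is to be read with it. The same holds for a lack of overlap between the groups, because its share over all tested genes is not given here. Rises made up 48.4% of the calls, 38.5% when libraries were scaled to their upper quartile and 29.5% when they were scaled by total count only, which moved the median of all genes by -0.13 and -0.26. With the library set as a term 5809 genes were called, of which 5603 had the same direction as without it and 0 the opposite one. Over all tested genes 2934 rose and 2875 fell with the set term, and 2618 rose and 6256 fell by total count. List counts under these settings are to be read against those numbers.

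The largest rise was in Cyp24a1 (chromosome 2, 170482708 to 170497145, minus strand, GRCm38), the 24-hydroxylase that inactivates vitamin D hormone and a classic target of its receptor. Cyp24a1 had 499, 468 and 512 CPM in M10 libraries, against 0.117, 0.171 and 0.387 CPM in Vehicle libraries. It was close to absent in all 3 Vehicle libraries, with 2, 5 and 9 counts, and abundant in every M10 library (log2 11.03, SE 0.15, edgeR adjusted p = 7.08e-33). Passing over the fibroblast transcript Col1a1, which split with the library set, the next 3 rises, Fabp6, Fgf15 and Nr0b2, are targets of FXR and are described below with its axis. Pdk4, the kinase that turns pyruvate dehydrogenase off when fatty acids are burnt, had 115, 108 and 134 CPM in M10 libraries, against 1.4, 4.71 and 2.84 CPM in Vehicle libraries, a 37-fold rise in which Vehicle libraries scattered more, relative to their mean, than M10 libraries. Acot12, an acetyl-CoA thioesterase, had 8.5, 8.58 and 10.8 CPM in M10 libraries, against 0.408, 0.239 and 0.172 CPM in Vehicle libraries, and Acacb, the acetyl-CoA carboxylase at the mitochondrial surface, had 46.6, 41.5 and 46.3 CPM in M10 libraries, against 2.1, 1.57 and 2.54 CPM in Vehicle libraries. The rule that picked these genes required that M10 and Vehicle do not overlap. Plb1, a brush border phospholipase, rose 27.1-fold, S100g, the calcium carrier calbindin-D9k, 24.7-fold, and H2-Q1, an MHC class I gene with close paralogs, 19.1-fold. Zg16, a lectin that goblet cells secrete, had 2076, 1761 and 2004 CPM in M10 libraries, against 72.3, 81.3 and 85.6 CPM in Vehicle libraries, and Clca3, the older symbol of the goblet cell protein Gob-5, had 1535, 1244 and 1434 CPM in M10 libraries, against 57.7, 67.1 and 58.7 CPM in Vehicle libraries. Both goblet cell products were high in every M10 library, Zg16 by 24.4-fold and Clca3 by 22.9-fold.

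Many of the largest falls among genes with at least 5 CPM in Vehicle were in genes of DNA copying and repair. Exo1, a nuclease of DNA end resection (chromosome 1, 175880581 to 175913489, plus strand), had no count in any M10 library, against 10.8, 8.47 and 13.3 CPM in Vehicle libraries, and was at least 82.4-fold lower with the M10 mean set at 3 counts per library. Fanci, a Fanconi anaemia protein (chromosome 7, 79391929 to 79450264, plus strand), also had none in M10, against 9.32, 8.4 and 11 CPM in Vehicle, and was at least 72.6-fold lower. Esco2, which acetylates cohesin in S phase, had 1, 0 and 2 counts in M10 libraries, against 463, 655 and 663 in Vehicle libraries. E2f7, a repressor of the E2F family, had 1, 1 and 0 counts in M10, against 210, 393 and 310 in Vehicle. The repair genes Rad51ap1 and Rad54l, the fork protection gene Timeless and the MYC-network gene Mxd3 likewise had 5 or fewer counts per library in M10 and 5.16 to 17.1 CPM in Vehicle. Slfn9, a schlafen family gene, had 0.191, 0.342 and 0.0509 CPM in M10 libraries, against 30.4, 30.1 and 29.4 CPM in Vehicle libraries (log2 -7.17, SE 0.31, edgeR adjusted p = 3.07e-21). Olfm4, a marker of crypt stem cells, had 0.0766, 0.128 and 0.56 CPM in M10 libraries, against 78.5, 78.4 and 87.4 CPM in Vehicle libraries and fell 342-fold. Saa2, an acute phase gene with a near-identical copy, was also among the 12 largest falls, with 0, 0.0854 and 0.0509 CPM in M10 libraries, against 8.21, 6.63 and 7.44 CPM in Vehicle libraries, but its level split with the library set in the other pools, and its difference with set as a term was -0.63 (edgeR adjusted p = 0.722).

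**Figure D1:**
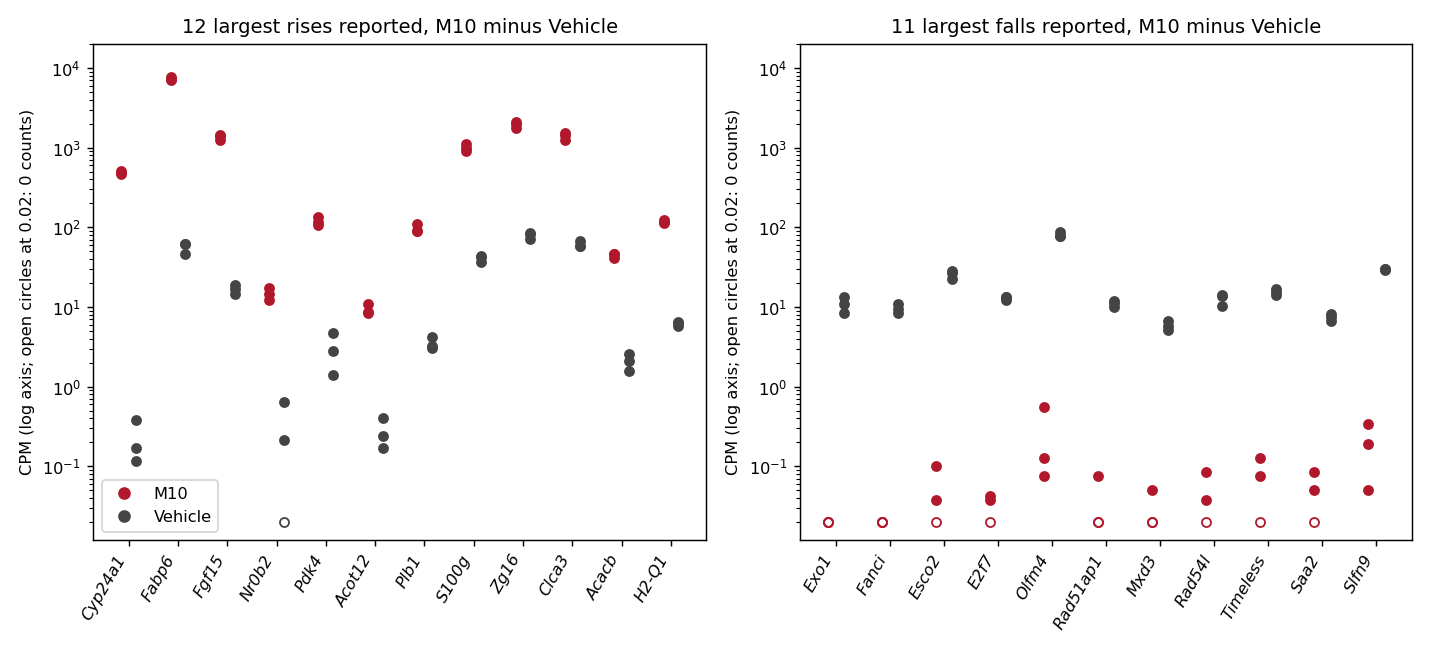
CPM on a log axis for the 12 largest rises and all but 1 of the 12 largest falls by the naming rule in M10 (left in each pair) and Vehicle libraries, 1 point per library, with an open circle at 0.02 for a library with no count. The naming rule took only genes in which the groups do not overlap, and Exo1 and Fanci have open circles in all 3 M10 libraries.

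Targets of FXR were far higher in M10. Fabp6, which binds bile acids in the cytosol, had 7348, 7632 and 6969.6 CPM in M10 libraries, against 61.7, 46.1 and 62.4 CPM in Vehicle libraries, a 129.7-fold rise (log2 7.02, SE 0.13, edgeR adjusted p = 3.14e-13). Fgf15, the hormone that reports bile acid flow to the liver, had 1420.4, 1455 and 1250.3 CPM in M10 libraries, against 14.4, 17 and 18.9 CPM in Vehicle libraries (log2 6.34, SE 0.094, edgeR adjusted p = 9.44e-21). Nr0b2 had 12.3, 17.3 and 14.5 CPM in M10 libraries, against 0.641, 0 and 0.215 CPM in Vehicle libraries (log2 5.93, SE 0.37, edgeR adjusted p = 1.78e-13). All 3 were among the largest rises, which were picked for no overlap between M10 and Vehicle, and Nr0b2 was near the detection floor in Vehicle. Slc51a and Slc51b, the subunits of the basolateral exporter, rose 7.69-fold and 12-fold, with 1407, 1484 and 1363 CPM in M10 libraries, against 184, 189 and 180.1 CPM in Vehicle libraries for Slc51a and 625, 652 and 630.2 CPM in M10 libraries, against 50.04, 53.7 and 54.7 CPM in Vehicle libraries for Slc51b. The receptor gene Nr1h4 itself rose less, 1.53-fold, with 184, 188 and 182 CPM in M10 libraries, against 124, 120.1 and 117 CPM in Vehicle libraries.

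Slc10a2, which encodes ASBT, had 145, 161 and 117 CPM in M10 libraries, against 56.2, 71.2 and 57 CPM in Vehicle libraries, so that each M10 library lay above each Vehicle library (log2 1.20, SE 0.14, edgeR adjusted p = 1.75e-06). Slc10a2 is known to be repressed through SHP in mouse ileum. Among the efflux pumps, Abcc2 had 1159, 1149 and 1150.3 CPM in M10 libraries, against 391, 403 and 364 CPM in Vehicle libraries and rose 2.99-fold, Abcc3 rose by 0.39 and Abcg2 by 0.97 on the log2 scale. Cyp27a1, the sterol 27-hydroxylase, had 20.2, 25.2 and 23.7 CPM in M10 libraries, against 2.21, 2.56 and 2.88 CPM in Vehicle libraries, 8.96-fold higher in M10. Falls were found for Nr5a2 (LRH-1, a partner of SHP; log2 -1.17), Rxra (the dimer partner of FXR; -0.42) and Fgfr4 (the FGF15 receptor; -0.47). Of the 21 tested genes of the axis and of bile acid transport, 11 rose and 3 fell, with a median of 0.39 against -0.03 over all tested genes.

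The RefSeq promoter window of Fabp6 (250 bases before to 50 after the start, GRCm38.p6) holds an inverted repeat of the kind that FXR is known to bind, searched as AGGNNANTNNCCT on both strands. The 250 bases before the start, chr11:43601563-43601812 on the minus strand, are shown because Fabp6 had the largest rise of the axis, with the match in capitals 142 bases before the start:
Fabp6: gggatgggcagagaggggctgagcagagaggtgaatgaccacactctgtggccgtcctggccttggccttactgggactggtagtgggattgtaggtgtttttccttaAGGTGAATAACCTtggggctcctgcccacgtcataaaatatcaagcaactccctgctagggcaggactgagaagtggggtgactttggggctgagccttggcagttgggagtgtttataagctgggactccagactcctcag
This pattern was found in 3 of the 17 axis genes with a promoter entry (17.6%) and in 56 of 9799 tested genes with one (0.572%).

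**Figure D2:**
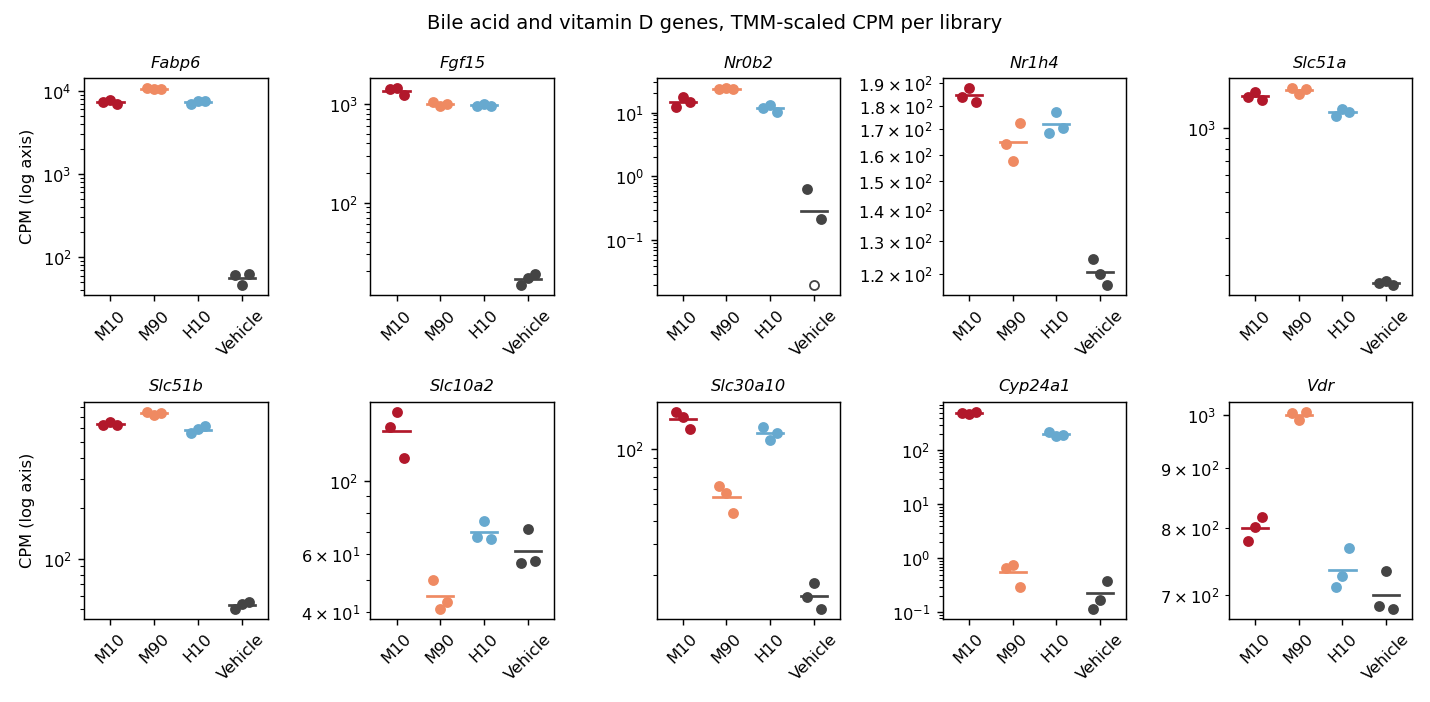
CPM per library on a log axis for 10 genes of bile acid and vitamin D signalling in M10, M90, H10 and Vehicle, left to right, with a line at the mean and an open circle at 0.02 for no count. Fabp6, Fgf15, Nr0b2, Slc51a and Slc51b are far above Vehicle in M10, and Cyp24a1 is high in M10 and H10 but not in M90 or Vehicle.

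Of the genes of vitamin D action and calcium absorption other than Cyp24a1, S100g had 993, 1101 and 915 CPM in M10 libraries, against 42, 43.4 and 36.5 CPM in Vehicle libraries (log2 4.63, SE 0.13, edgeR adjusted p = 3.93e-12), and Atp2b1, the basolateral calcium pump, had 921, 891 and 858 CPM in M10 libraries, against 282, 286 and 238 CPM in Vehicle libraries (log2 1.73, SE 0.057, edgeR adjusted p = 2.87e-22). Cyp3a11, a drug and bile acid hydroxylase that the vitamin D and pregnane X receptors both induce, had 1905, 1854 and 2227 CPM in M10 libraries, against 224, 206 and 210.1 CPM in Vehicle libraries, 9.35-fold higher in M10. In all of these every M10 library exceeded every Vehicle library. The apical calcium channel Trpv6 had no count in any of the 6 libraries, and the paracellular calcium pore gene Cldn2 fell by 0.44 on the log2 scale. The receptor gene Vdr had 778, 802 and 817 CPM in M10 libraries, against 685, 734 and 681 CPM in Vehicle libraries, a rise of 0.19 (SE 0.041, edgeR adjusted p = 0.00013) that turned to -0.0735 when libraries were scaled by total count. Across 9 tested genes of this group 5 rose and 2 fell.

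In the list of metal handling, Slc30a10, which exports manganese from the cell, had 161, 151 and 129.9 CPM in M10 libraries, against 15.1, 18.1 and 13.1 CPM in Vehicle libraries and rose 9.49-fold (log2 3.25, SE 0.13, edgeR adjusted p = 1.61e-13). Of its genes for zinc, Slc30a1, the plasma membrane zinc exporter, rose by 1.16, Slc30a2, a vesicular zinc transporter, by 1.43, and the metallothioneins Mt1 and Mt2 by 0.62 and 0.49 on the log2 scale. Slc40a1 (ferroportin), the iron exporter, had 18.5, 15 and 14.6 CPM in M10 libraries, against 46.8, 50.8 and 44.8 CPM in Vehicle libraries and fell (log2 -1.56, SE 0.13, edgeR adjusted p = 1.95e-11), while its ferroxidase partner Heph rose by 0.99. The apical iron importer Slc11a2 overlapped between the groups, with 102, 95.8 and 94 CPM in M10 libraries, against 90.5, 114 and 91.1 CPM in Vehicle libraries (log2 -0.02, SE 0.13, edgeR adjusted p = 0.913). Over the list 19 of 28 tested genes rose and 3 fell, with a median of 0.34, or 11 and 8 with a median of 0.08 when libraries were scaled by total count.

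The machinery of cell division was lower in M10 throughout. Mcm3, Mcm6 and Mcm7 encode subunits of the replicative helicase. Mcm3 had 2.91, 2.86 and 2.85 CPM in M10 libraries, against 62.6, 59 and 67.5 CPM in Vehicle libraries, 21.9-fold lower in M10 (log2 -4.45, SE 0.14, edgeR adjusted p = 1.87e-25). Mcm6 had 11, 10.6 and 10.9 CPM in M10 libraries, against 97.1, 100.3 and 104 CPM in Vehicle libraries, 9.26-fold lower (log2 -3.21, SE 0.1, edgeR adjusted p = 6.77e-26), and Mcm7 had 6.09, 7.0 and 9.06 CPM in M10 libraries, against 93, 90.4 and 109 CPM in Vehicle libraries. Dnmt1, the maintenance DNA methyltransferase, had 16.7, 14.4 and 16.5 CPM in M10 libraries, against 117, 113 and 118 CPM in Vehicle libraries, and no library of one group came near the other. Pcna, the sliding clamp, had 86, 82.6 and 84.7 CPM in M10 libraries, against 138, 138 and 144 CPM in Vehicle libraries and fell far less than its partners (log2 -0.73). All 44 tested DNA replication genes fell, 42 of them by at least 2-fold, with a median of -3.14. In bulk RNA, fewer dividing cells and less of these transcripts per cell cannot be told apart, and the same holds for each cell type below.

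Nucleotide supply fell alongside. Rrm2, the regulated subunit of ribonucleotide reductase, had 4.13, 1.62 and 3.77 CPM in M10 libraries, against 52.9, 46.4 and 57.1 CPM in Vehicle libraries (log2 -4.03, SE 0.19, edgeR adjusted p = 1.72e-17), and Tk1, thymidine kinase, had 2.99, 2.22 and 1.02 CPM in M10 libraries, against 37, 36.3 and 43.5 CPM in Vehicle libraries. The large reductase subunit Rrm1 (-3.49), the folate enzymes Shmt1 (-4.08) and Mthfd1 (-2.63) and the guanine nucleotide enzyme Impdh2 (-2.31) were lower in M10 with no overlap. All 21 tested genes of the list fell, with a median of -2.54. Repair by homologous recombination and the Fanconi pathway followed: 29 of 30 tested genes fell and none rose, with a median of -3.77. There, Brca1 had 0.919, 1.24 and 2.95 CPM in M10 libraries, against 21, 23.5 and 21.7 CPM in Vehicle libraries, and Fanca had 0.191, 0.299 and 1.07 CPM in M10 libraries, against 17.3, 19.3 and 18.4 CPM in Vehicle libraries.

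Mitotic genes had the lowest median of the 60 lists. Mki67, the proliferation antigen Ki-67, had 9.61, 4.53 and 9.37 CPM in M10 libraries, against 292, 296 and 280.3 CPM in Vehicle libraries, 37-fold lower in M10 (log2 -5.21, SE 0.19, edgeR adjusted p = 2.37e-10). Top2a, the mitotic topoisomerase, had 6.36, 6.79 and 7.33 CPM in M10 libraries, against 259, 243 and 253 CPM in Vehicle libraries, 37-fold lower (log2 -5.21, SE 0.094, edgeR adjusted p = 1.88e-32). Cdk1, the kinase that starts mitosis, had 4.86, 6.11 and 4.99 CPM in M10 libraries, against 81, 81.6 and 93.7 CPM in Vehicle libraries, and its cyclin Ccnb1 had 1.23, 1.45 and 1.32 CPM in M10 libraries, against 49.6, 48.8 and 54.1 CPM in Vehicle libraries. Each of these genes was low in all 3 M10 libraries, with Mki67 lowest in M10 b. Plk1 (-5.79), Racgap1 (-5.64), Cdc20 (-5.06), Birc5 (-4.46) and the condensin gene Ncapd2 (-3.97) fell as much on the log2 scale. All 58 tested genes of mitosis, spindle and kinetochore fell, 57 by at least 2-fold, with a median of -4.81. With the library set as a term, all 58 mitotic and 43 of 44 replication genes remained called lower.

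E2f8, an E2F repressor, had 1.72, 1.45 and 1.02 CPM in M10 libraries, against 63.3, 53.6 and 63.2 CPM in Vehicle libraries, E2f1, the activator, had 0.421, 1.32 and 0.611 CPM in M10 libraries, against 12.47, 11.7 and 11.9 CPM in Vehicle libraries, Foxm1, which drives mitotic genes, had 0.919, 1.2 and 2.65 CPM in M10 libraries, against 46.1, 49.2 and 50.7 CPM in Vehicle libraries, and Mybl2, its partner, had 0.995, 0.427 and 0.407 CPM in M10 libraries, against 21.7, 19.4 and 25 CPM in Vehicle libraries. All were lower in every M10 library. Of 24 tested genes of the E2F family, the DREAM complex and cyclin E, 19 fell, while Rb1 (the retinoblastoma protein; 0.55), E2f5, a repressor E2F (0.30) and the phosphatase gene Cdc25a (0.91) rose. Among brakes of the cycle, Cdkn1a (p21) had 899, 879 and 750.3 CPM in M10 libraries, against 333, 387 and 343 CPM in Vehicle libraries (log2 1.25, SE 0.12, edgeR adjusted p = 1.56e-06), whereas Cdkn1b (p27) overlapped between groups (log2 -0.07, SE 0.069, edgeR adjusted p = 0.361) and Cdkn2c (p18) fell by 2.32. By total count Cdkn1b was called lower (log2 -0.34, edgeR adjusted p = 4.85e-05). Ccnd1, cyclin D1, had 5.55, 6.49 and 5.6 CPM in M10 libraries, against 83.4, 71.4 and 73.3 CPM in Vehicle libraries, and Ccnd2 (log2 -1.95) and the kinase gene Cdk4 (-1.99) fell too. The p53 targets Mdm2 (0.55) and Gdf15 (2.44) rose. Over this list 10 of 29 tested genes rose and 11 fell, or 10 and 5 with the library set as a term and 7 and 14 by total count, and the median was -0.03.

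In the same 300-base promoter windows, letters of the E2F site (TTTCCCGC, TTTGGCGC or TTTCGCGC, both strands) stood in 16 of 36 replication genes with an entry (44.4%), in 6 of 48 mitotic genes and in 386 of 9799 tested genes (3.94%). They stood in 1 of 19 nucleotide supply genes (5.26%) and in 4 of 22 genes of recombination and Fanconi repair (18.2%) with an entry. The cell cycle homology element (CHR, TTTGAA, both strands) stood in 35 mitotic genes (72.9%), 8 replication genes (22.2%) and 14.2% of tested genes. A run of letters is a description and not a bound site. Stretches from the windows of genes named here are shown to let the element be read in its surroundings, with E2F letters in capitals in Mcm6 (chr1:128359731-128359829, minus strand), Mcm7 (chr5:138172027-138172062, minus), Dnmt1 (chr9:20952821-20952856, minus) and E2f7 (chr10:110745227-110745262, plus), and CHR letters in capitals in Cdk1 (chr10:69352913-69352997, minus), Mki67 (chr7:135716458-135716509, minus), Cdc20 (chr4:118437344-118437375, minus) and Ncapd2 (chr6:125191690-125191723, minus). The first capitals in Mcm6 are overlapping matches on opposite strands, and E2F letters read on the other strand appear as GCGGGAAA or GCGCGAAA.
Mcm6: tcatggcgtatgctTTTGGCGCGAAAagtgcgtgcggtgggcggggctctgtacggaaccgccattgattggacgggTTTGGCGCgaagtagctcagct
Mcm7: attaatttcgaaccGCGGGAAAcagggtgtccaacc
Dnmt1: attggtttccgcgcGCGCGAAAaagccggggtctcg
E2f7: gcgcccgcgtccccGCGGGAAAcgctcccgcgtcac
Cdk1: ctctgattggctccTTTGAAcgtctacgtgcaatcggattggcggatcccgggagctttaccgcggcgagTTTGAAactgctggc
Mki67: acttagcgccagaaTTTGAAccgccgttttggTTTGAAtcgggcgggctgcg
Cdc20: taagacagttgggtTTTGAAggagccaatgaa
Ncapd2: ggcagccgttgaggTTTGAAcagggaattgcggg

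Ribosome production was lower too. Ncl, nucleolin, had 209, 198 and 239.9 CPM in M10 libraries, against 585, 561 and 614 CPM in Vehicle libraries, and Npm1, nucleophosmin, had 204, 177 and 213 CPM in M10 libraries, against 617, 595 and 645 CPM in Vehicle libraries. Nop56, Fbl and Mybbp1a, nucleolar proteins of rRNA processing, fell as well (log2 -2.19, -2.08 and -2.03). All 42 tested ribosome biogenesis genes fell, with a median of -1.42. Cytosolic ribosomal protein genes changed less: 78 of 82 fell and none rose, with a median of -0.70, and Rps2 had 535, 517 and 535 CPM in M10 libraries, against 1155, 1141 and 1358 CPM in Vehicle libraries. Mitochondrial ribosomal protein genes fell in 59 of 76 cases and rose in 2, with a median of -0.57. Chaperones that serve new proteins were lower, with Hspd1 (HSP60) at 134, 139.7 and 151 CPM in M10 and 484, 458 and 480.5 CPM in Vehicle and Hsp90ab1 at 1077, 1067 and 1078 CPM in M10 and 2059.6, 1964 and 2118 CPM in Vehicle. Of 25 tested heat shock genes 16 fell and 2 rose. For respiratory chain subunits the direction rested on the scaling: 23 of 76 tested genes rose and 8 fell with a median of 0.08, or 8 and 6 with the set term, but 4 and 52 with a median of -0.19 when libraries were scaled by total count. Cycs, cytochrome c, had 131, 147 and 125 CPM in M10 and 65.6, 65.8 and 67.3 CPM in Vehicle.

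Crypt stem cell and Wnt target genes were lower. Lgr5, the receptor that marks crypt base stem cells, had 1.95, 1.45 and 2.6 CPM in M10 libraries, against 6.7, 8.44 and 8.08 CPM in Vehicle libraries (log2 -1.96, SE 0.27, edgeR adjusted p = 7.85e-08). Axin2, a feedback target of Wnt, had 2.26, 2.52 and 1.78 CPM in M10 libraries, against 49.6, 55.5 and 55.1 CPM in Vehicle libraries, 24.2-fold lower in M10. Ephb2, the crypt receptor that sorts cells along the axis, had 19.6, 17.3 and 18.6 CPM in M10 libraries, against 76.7, 80.8 and 79.5 CPM in Vehicle libraries, and Sox9 had 11.5, 10.9 and 8.4 CPM in M10 libraries, against 27.1, 31 and 31.8 CPM in Vehicle libraries. None of the M10 libraries reached a Vehicle library in these genes, nor in Hopx (log2 -1.85), Ascl2 (-1.57) or Myc (-0.95). Of 31 tested genes 23 fell, with a median of -1.15. The 3 that rose were Jun (1.21), Fzd7 (0.44) and Notum (2.05), a secreted inhibitor of Wnt.

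Notch signals keep crypt cells from the secretory fate. Notch1 had 9.57, 13.3 and 11.4 CPM in M10 libraries, against 45.9, 40.03 and 37.5 CPM in Vehicle libraries, Hes1, its target and a repressor of the secretory fate, had 21.9, 20.4 and 13.8 CPM in M10 libraries, against 47.7, 50.8 and 52.7 CPM in Vehicle libraries, and Nrarp, its feedback inhibitor, had 3.56, 5.47 and 3.51 CPM in M10 libraries, against 45.1, 42.2 and 48.8 CPM in Vehicle libraries, all lower in each M10 library. Atoh1, the factor that makes secretory cells, had 25.8, 22.6 and 24.4 CPM in M10 libraries, against 7.46, 7.41 and 7.52 CPM in Vehicle libraries (log2 1.70, SE 0.14, edgeR adjusted p = 1.73e-13), and the ligand gene Dll1 rose by 0.68. In the whole list 8 of 22 rose and 10 fell (8 and 6 with the set term).

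Goblet cell products rose. Muc2, the gel-forming mucin, had 1178, 1081 and 1111 CPM in M10 libraries, against 121, 136 and 149 CPM in Vehicle libraries (log2 3.05, SE 0.092, edgeR adjusted p = 3.15e-13). Fcgbp, a mucus protein, had 3239, 2832 and 3151 CPM in M10 libraries, against 675, 679 and 573 CPM in Vehicle libraries, and Tff3, the trefoil peptide, had 1278, 1177 and 1172 CPM in M10 libraries, against 207, 197 and 245 CPM in Vehicle libraries. Spdef, the factor of goblet cell maturation, had 23.4, 24.6 and 25.2 CPM in M10 libraries, against 7.63, 8.98 and 10.02 CPM in Vehicle libraries. No library overlapped between M10 and Vehicle in these genes. Clca1, also set as a marker in this list, was not called (log2 0.28, edgeR adjusted p = 0.257). Of 21 tested goblet cell genes 17 rose, 14 by at least 2-fold, with a median of 1.45. The one fall was St6galnac1, a mucin sialyltransferase with no count in M10 and 0.874, 0.205 and 1.42 CPM in Vehicle.

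Other secretory lineages rose by less. Lyz1, Paneth cell lysozyme, had 138, 128 and 122.9 CPM in M10 libraries, against 34.3, 40.4 and 54.9 CPM in Vehicle libraries (log2 1.58, SE 0.14, edgeR adjusted p = 1.49e-07), and Pnliprp2, a Paneth cell lipase, had 71.6, 70.4 and 70.7 CPM in M10 libraries, against 13.4, 15.2 and 19.3 CPM in Vehicle libraries. Of 17 tested Paneth cell genes 11 rose and none fell, or 8 and 0 with the library set as a term. The α-defensin genes among them have near-identical copies. Defa17 was not called (log2 0.26, edgeR adjusted p = 0.35). Mmp7 (0.85) and Defa24 (1.62) rose but lost their calls with the set term, at 0.03 and 1.29 (edgeR adjusted p = 0.957 and 0.0518). Gcg, the proglucagon of L cells, had 1107, 1134 and 1022 CPM in M10 libraries, against 512, 444 and 431 CPM in Vehicle libraries, Cck, cholecystokinin, had 281, 305 and 288 CPM in M10 libraries, against 105, 108 and 106 CPM in Vehicle libraries, and Sct, secretin, had 94.1, 93.7 and 67.6 CPM in M10 libraries, against 18.8, 20.3 and 20.9 CPM in Vehicle libraries, all higher in every M10 library. In the enteroendocrine list 21 of 33 tested genes rose and 2 fell, with a median of 0.81. Dclk1, a tuft cell kinase, had 64.2, 57.4 and 55.2 CPM in M10 libraries, against 34.3, 36.4 and 30.7 CPM in Vehicle libraries, and Trpm5, the tuft cell cation channel, had 43.3, 38.4 and 41.6 CPM in M10 libraries, against 22.4, 21.7 and 21.2 CPM in Vehicle libraries. Of 23 tested tuft cell genes 15 rose and none fell, against 11 and 1 with scaling by total count and 6 and 0 with the library set as a term. The tuft cell transcription factor gene Pou2f3 was not called (log2 0.41, SE 0.22, edgeR adjusted p = 0.0964), but with the set term it was called higher (log2 1.07, edgeR adjusted p = 0.0166).

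**Figure D3:**
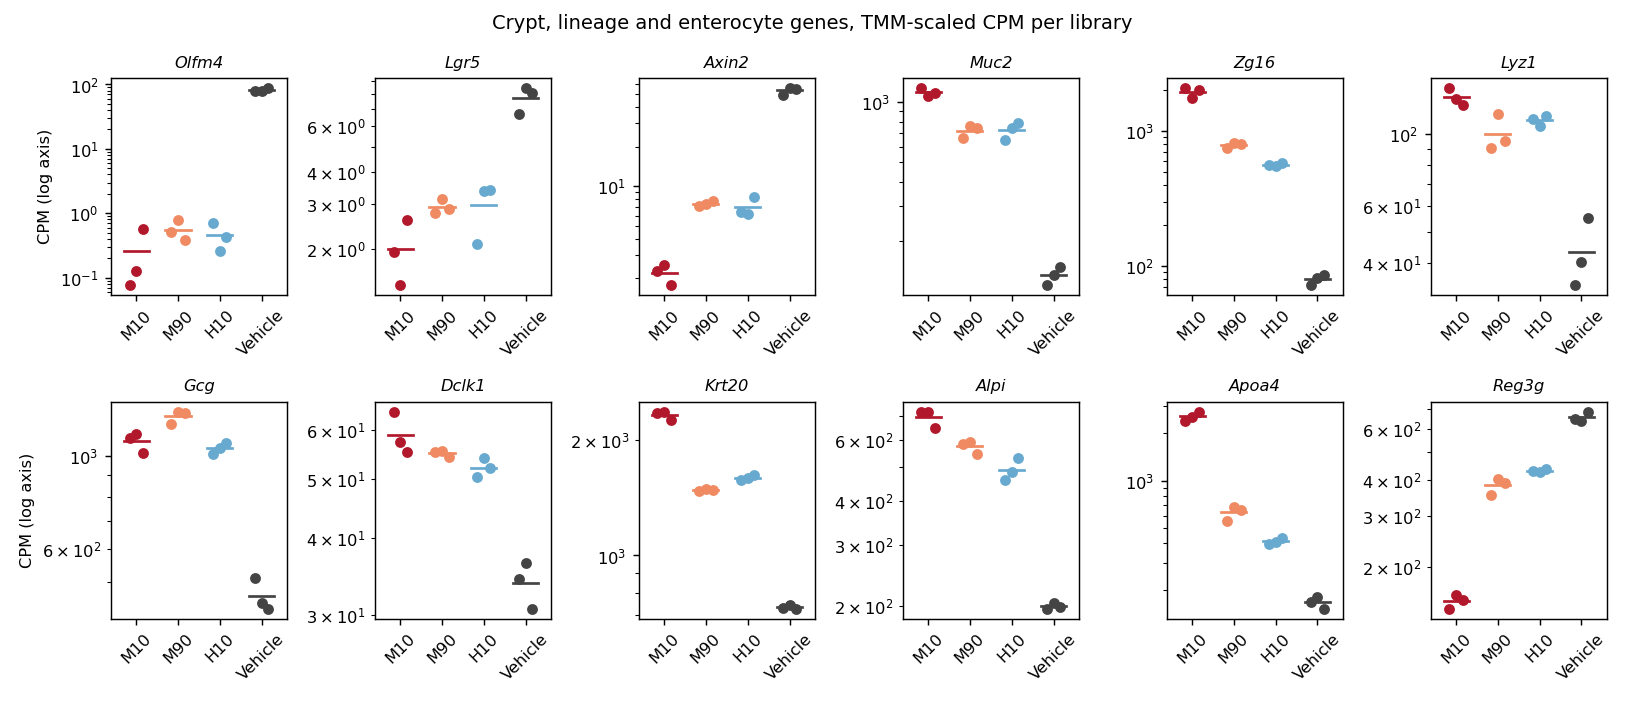
CPM per library on a log axis for stem cell genes (Olfm4, Lgr5, Axin2), secretory genes (Muc2, Zg16, Lyz1, Gcg, Dclk1), enterocyte genes (Krt20, Alpi, Apoa4) and Reg3g in M10, M90, H10 and Vehicle, left to right, with a line at the mean and an open circle at 0.02 for no count. M10 lies below Vehicle in the stem cell genes and Reg3g and above it in the secretory and enterocyte genes.

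Enterocyte structure and digestion rose. Krt20, a keratin of differentiated cells, had 2356, 2364 and 2255 CPM in M10 libraries, against 729, 742 and 726 CPM in Vehicle libraries (log2 1.67, SE 0.039, edgeR adjusted p = 1.83e-29). Ezr, which ties microvilli to the membrane, had 2884, 2896 and 2659 CPM in M10 libraries, against 886, 922 and 828 CPM in Vehicle libraries (log2 1.68, SE 0.044, edgeR adjusted p = 3.26e-28), and Vil1, villin, had 3035, 3077 and 3074 CPM in M10 libraries, against 1575, 1665 and 1529 CPM in Vehicle libraries. The groups were apart in all of them. Of 28 tested genes of the brush border cytoskeleton 24 rose and none fell. Alpi, intestinal alkaline phosphatase, had 719.7, 718 and 646 CPM in M10 libraries, against 197, 205 and 198 CPM in Vehicle libraries, and Anpep, aminopeptidase N, had 3479, 3723 and 3382 CPM in M10 libraries, against 1245, 1376 and 1266 CPM in Vehicle libraries. Ggt1 rose by 1.83 on the log2 scale. Among peptidases and phosphatases 14 of 18 rose and none fell, with a median of 1.07.

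Transporters of sugars and amino acids were more mixed. Slc5a1, the glucose importer SGLT1, had 1983, 2097 and 2096 CPM in M10 libraries, against 1085, 1225 and 968 CPM in Vehicle libraries and Slc2a2, the basolateral GLUT2, had 143, 152 and 142 CPM in M10 libraries, against 53.9, 63.7 and 50.3 CPM in Vehicle libraries, both higher in every M10 library. Sis, sucrase-isomaltase, rose by 0.43 and Mgam, maltase-glucoamylase, by 1.08. In this list 15 of 22 tested genes rose and 6 fell, or 9 and 6 with the set term. Slc15a1, the peptide importer PEPT1, had 242, 245 and 232 CPM in M10 libraries, against 71.7, 71.1 and 74.7 CPM in Vehicle libraries (log2 1.73, SE 0.078, edgeR adjusted p = 2.57e-18). Slc6a19, a neutral amino acid importer, had 65.9, 78.3 and 79 CPM in M10 libraries, against 30.1, 28.8 and 28.3 CPM in Vehicle libraries, and Slc7a11, the cystine importer, had 29.9, 34.9 and 31.5 CPM in M10 libraries, against 4.6, 4.41 and 4.26 CPM in Vehicle libraries. Slc6a14, a transporter of neutral and basic amino acids, fell, with 1.65, 0.683 and 0.153 CPM in M10 libraries, against 17.7, 18.9 and 20.8 CPM in Vehicle libraries. For amino acid and peptide transporters 16 of 26 tested genes rose and 4 fell.

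Lipid absorption rose almost as a whole. Apoa4, a chylomicron apolipoprotein, had 2409.7, 2551 and 2739.8 CPM in M10 libraries, against 169.6, 180.4 and 153 CPM in Vehicle libraries, 15.3-fold higher in M10 (log2 3.94, SE 0.082, edgeR adjusted p = 1.68e-17). Fabp1 and Fabp2, the cytosolic fatty acid carriers, had 1485, 1462 and 1738 CPM in M10 libraries, against 121, 149.9 and 134 CPM in Vehicle libraries for Fabp1 and 2844, 2962 and 2979 CPM in M10 libraries, against 371, 385 and 439.7 CPM in Vehicle libraries for Fabp2. Cidec, a lipid droplet protein, had 196, 197 and 189 CPM in M10 libraries, against 18, 18 and 18.7 CPM in Vehicle libraries, and Apoc2, the cofactor of lipoprotein lipase, had 141, 161 and 146 CPM in M10 libraries, against 13.6, 12.1 and 11.2 CPM in Vehicle libraries. M10 and Vehicle were apart in all of these. Apob rose 3.47-fold, Mttp, which loads lipid onto it, 3.12-fold, and Apoa1 4.25-fold. Of 33 tested genes 30 rose, 21 by at least 2-fold, with a median of 1.13. Scarb1, the lipoprotein receptor SR-BI, fell (84.3, 93.7 and 109 CPM in M10 and 163, 158 and 163 CPM in Vehicle), and so did the phospholipase Pla2g4c, with no count in M10 and 1.63, 1.43 and 1.5 CPM in Vehicle.

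Fatty acid oxidation rose with it. PPARα is the nuclear receptor of fatty acids, and its gene Ppara had 154, 161 and 179.8 CPM in M10 libraries, against 110.2, 105 and 103 CPM in Vehicle libraries (log2 0.64, SE 0.06, edgeR adjusted p = 7.63e-12). Cpt1a, the gate of mitochondrial oxidation, had 477, 485 and 509 CPM in M10 libraries, against 320.2, 299 and 314 CPM in Vehicle libraries (log2 0.66, SE 0.047, edgeR adjusted p = 5.99e-15). Creb3l3, a factor of lipid metabolism, had 582, 613 and 637 CPM in M10 libraries, against 71, 81.2 and 75.2 CPM in Vehicle libraries, 8.04-fold higher, and Cyp4a10, an ω-hydroxylase, had 8.12, 5.55 and 9.78 CPM in M10 libraries, against 0.699, 0.786 and 1.12 CPM in Vehicle libraries. Every M10 library was above every Vehicle library here. Of 43 tested genes 40 rose, and Hadh (-0.26) and Eci1 (-0.23) fell, with a median of 1.01. Of 8 ketone body genes 3 rose and 4 fell, or 1 and 5 by total count, among the falls Acat1 (log2 -1.49) and Slc16a1, a carrier of ketone bodies and lactate (-0.53).

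Sterol and lipid synthesis split. Hmgcs1, an early enzyme of cholesterol synthesis, had 1163, 1155 and 1170.2 CPM in M10 libraries, against 754, 779 and 726 CPM in Vehicle libraries and rose (log2 0.63, SE 0.039, edgeR adjusted p = 6.43e-17). In this list 15 of 25 tested genes rose and 5 fell, or 9 and 9 when libraries were scaled by total count. The sterol efflux genes Abcg5 (0.82), Abcg8 (0.61) and Abca1 (0.79) and the LXR target Lpcat3 (1.20) rose, with 10 of 16 higher and 4 lower. The desaturase gene Scd1 had 487, 508 and 547 CPM in M10 libraries, against 201, 189.7 and 195 CPM in Vehicle libraries and rose, whereas Fads1 and Fads2, which desaturate polyunsaturated fatty acids, had 7.96, 9.61 and 8.15 CPM in M10 libraries, against 53, 55.4 and 61.1 CPM in Vehicle libraries for Fads1 and 29.6, 29.4 and 35.2 CPM in M10 libraries, against 188, 175 and 195 CPM in Vehicle libraries for Fads2. Over the fatty acid synthesis list 7 of 22 tested genes rose and 11 fell.

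The villus tip list, genes that are high in the oldest enterocytes, rose in 14 of 18 tested genes, with a median of 1.57. Gda, guanine deaminase, had 131, 136 and 120.3 CPM in M10 libraries, against 17.1, 15.4 and 15.4 CPM in Vehicle libraries (log2 3.02, SE 0.085, edgeR adjusted p = 3.9e-27), Ada, adenosine deaminase, had 27.8, 25.2 and 22.1 CPM in M10 libraries, against 7.63, 9.32 and 8.17 CPM in Vehicle libraries, and Entpd8, an apical nucleotidase, had 130.5, 125 and 122.8 CPM in M10 libraries, against 37.2, 43.4 and 45.5 CPM in Vehicle libraries. Slc29a1, a nucleoside transporter, fell by 2.20. Retinoid genes rose in 14 of 20 cases and fell in 3. There Rbp2, the retinol carrier of enterocytes, had 365, 359.8 and 417 CPM in M10 libraries, against 49.6, 55.2 and 57.1 CPM in Vehicle libraries, and Isx, a repressor of vitamin A uptake, had 45.4, 41.2 and 32.1 CPM in M10 libraries, against 1.81, 3.93 and 3.44 CPM in Vehicle libraries. Among the transcription factors of enterocytes 11 were higher and 11 lower of 25, or 5 and 14 with scaling by total count. Of the 10 epithelial identity genes 6 rose and 2 fell, none by 2-fold, or 5 and 4 by total count.

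Drug-metabolizing genes of the pregnane X receptor rose in 20 of 27 tested cases and fell in 5 (17 and 8 by total count), with a median of 0.70. The receptor gene Nr1i2 had 183, 183 and 176 CPM in M10 libraries, against 89, 97 and 99.4 CPM in Vehicle libraries, Por, the electron donor of cytochromes P450, had 1292, 1301 and 1299 CPM in M10 libraries, against 309, 333 and 321 CPM in Vehicle libraries, and Cyp3a13 had 1964, 1945 and 1932 CPM in M10 libraries, against 368, 416 and 365 CPM in Vehicle libraries. Cyp2b10, the classic target of the related receptor CAR, had 191, 160.3 and 234 CPM in M10 libraries, against 322, 289.5 and 322 CPM in Vehicle libraries and fell (log2 -0.68, SE 0.12, edgeR adjusted p = 0.000402), and the CAR gene Nr1i3 overlapped between the groups (log2 -0.05, SE 0.13, edgeR adjusted p = 0.736), although it was called lower with the library set as a term (log2 -0.69, edgeR adjusted p = 0.00476).

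The ATF4 programme, which answers to amino acid shortage and other stress, was higher. Atf4 had 605, 616 and 586 CPM in M10 libraries, against 355, 363 and 363 CPM in Vehicle libraries (log2 0.74, SE 0.041, edgeR adjusted p = 2.14e-18). Its targets Ddit3 (CHOP), with 60.2, 58 and 52.7 CPM in M10 libraries, against 12.7, 13.9 and 15.6 CPM in Vehicle libraries, Chac1, a glutathione-degrading enzyme, with 97.2, 89.1 and 86.3 CPM in M10 libraries, against 14, 14.3 and 13.4 CPM in Vehicle libraries, and Asns, asparagine synthetase, with 248, 226 and 207 CPM in M10 libraries, against 98.3, 95.7 and 97.5 CPM in Vehicle libraries, rose without overlap. In the list 26 of 36 tested genes rose and 6 fell, with a median of 0.74. Chaperones and related genes of the endoplasmic reticulum moved both ways. Hspa5 (BiP) rose by 0.40, Dnajb9 by 1.23, P4hb by 1.15 and Herpud1 by 1.62. Hsp90b1 was not called (log2 -0.05, SE 0.04, edgeR adjusted p = 0.239), but was called lower by total count (log2 -0.32, edgeR adjusted p = 8.25e-09). Of 30 tested genes 13 rose, 4 of them at least 2-fold, and 9 fell, 0 of them by 2-fold. By total count 6 rose and 16 fell. NRF2 targets split, with Hmox1 (1.44) and Gclm (0.88) higher and Nqo1 (-0.89) and Txn1 (-0.67) lower, and 14 of 31 rising against 11 falling, or 13 and 17 by total count. In autophagy and lysosome genes 22 of 35 tested genes rose and 1 fell, or 14 and 1 with the set term and 14 and 11 with scaling by total count, where the median of 0.29 became 0.02. Sqstm1, the cargo adaptor p62, had 703, 686 and 659.8 CPM in M10 libraries, against 223, 217 and 230.1 CPM in Vehicle libraries. Glycolysis and hypoxia genes rose in 25 of 28 cases and fell in 3 (14 and 3 with the set term, 13 and 4 by total count), with Slc2a1 (GLUT1) at 346, 356 and 279 CPM in M10 and 108, 117 and 111 CPM in Vehicle. Among apoptosis genes 17 of 27 tested genes rose and 6 fell, or 11 and 6 by total count. There the BH3 genes and receptors Pmaip1 (1.05) and Tnfrsf10b (1.0) and the survival genes Bcl2l1 (0.94) and Mcl1 (0.5) all rose.

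Genes of EGF receptor signals rose. Areg, amphiregulin, had 566, 532 and 483 CPM in M10 libraries, against 53.9, 60.01 and 53.4 CPM in Vehicle libraries (log2 3.24, SE 0.069, edgeR adjusted p = 2.5e-27), Ereg, epiregulin, had 254, 242 and 215 CPM in M10 libraries, against 47.7, 50 and 47.5 CPM in Vehicle libraries, and Hbegf had 94.3, 81.2 and 63.9 CPM in M10 libraries, against 18.4, 20.9 and 17.5 CPM in Vehicle libraries. Egfr, their receptor, had 47.6, 43.5 and 39 CPM in M10 libraries, against 26, 24.7 and 22.1 CPM in Vehicle libraries, and Errfi1, which restrains it, rose by 1.66. Each of them was higher in all 3 M10 libraries, and 8 of 12 tested ligands and receptors rose against 2 that fell. The immediate early factor Fos had 136, 130.1 and 95 CPM in M10 libraries, against 28.8, 31.8 and 28.5 CPM in Vehicle libraries (log2 2.02, SE 0.13, edgeR adjusted p = 1.74e-10), Phlda1 had 134, 145 and 109.7 CPM in M10 libraries, against 22.5, 26.1 and 25.8 CPM in Vehicle libraries, and Dusp6, the phosphatase that turns ERK off, had 57.1, 58.9 and 45.1 CPM in M10 libraries, against 20.3, 23.8 and 26.9 CPM in Vehicle libraries. M10 c was the lowest M10 library in these genes and still above Vehicle. Of 32 tested immediate early and feedback genes 25 rose, and Etv4 (-2.12), Etv5 (-1.18), Spred1 (-1.07) and Ier2 (-0.36) fell. Genes of fetal-like repair and of YAP rose in 19 of 24 cases, with a median of 1.24 and Cnn3 (-0.59) as the fall. Among them Clu, the clusterin of revival stem cells, had 87.6, 82.6 and 79.9 CPM in M10 libraries, against 15.7, 17.3 and 16.7 CPM in Vehicle libraries, and Plaur, the urokinase receptor, had 169, 173 and 154 CPM in M10 libraries, against 28, 33.4 and 25.2 CPM in Vehicle libraries. Ly6a (Sca-1) was called by a small margin, with 31.5, 19.9 and 15.8 CPM in M10 libraries, against 16.6, 16.4 and 15.3 CPM in Vehicle libraries (log2 0.48, SE 0.19, edgeR adjusted p = 0.0295), and lost that call without M10 a or without any of the Vehicle libraries.

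Glucocorticoid-inducible genes included large rises. Sgk1, a kinase of sodium transport, had 82.2, 85.2 and 88.4 CPM in M10 libraries, against 7.46, 7.75 and 7.39 CPM in Vehicle libraries (log2 3.5, SE 0.13, edgeR adjusted p = 7.63e-24), Fkbp5, a chaperone of the steroid receptors, had 78.9, 87.8 and 91 CPM in M10 libraries, against 19.1, 17.2 and 22 CPM in Vehicle libraries (log2 2.15, SE 0.12, edgeR adjusted p = 1.55e-18), and Per1 had 69.5, 79.3 and 73.8 CPM in M10 libraries, against 24.3, 23.5 and 20.2 CPM in Vehicle libraries. In the list 7 of 13 tested genes rose and 3 fell, or 5 and 1 with the set term and 5 and 3 by total count. Tsc22d3 rose by only 0.46 on the log2 scale. It lost its call with the set term (log2 0.33, edgeR adjusted p = 0.119) and by total count (log2 0.20, edgeR adjusted p = 0.0604). Genes of ion transport moved both ways. Cftr, the chloride channel of crypts, had 10.5, 10.3 and 12.6 CPM in M10 libraries, against 111, 108 and 103 CPM in Vehicle libraries, 9.68-fold lower, and Kcne3, the potassium channel subunit that supports it, had 0.651, 0.427 and 0.713 CPM in M10 libraries, against 27.6, 29.4 and 36.9 CPM in Vehicle libraries. Slc26a3, the chloride exchanger of villus cells, had 232, 255 and 273 CPM in M10 libraries, against 156, 150.0 and 148 CPM in Vehicle libraries, and Slc9a3 (NHE3), the sodium exchanger, had 29.1, 27.8 and 22.8 CPM in M10 libraries, against 13, 14 and 12.51 CPM in Vehicle libraries, both higher. Of 26 tested genes of ion transport 15 rose and 7 fell, or 12 and 4 with the set term. At the junctions Cldn4, a sealing claudin, had 967, 918 and 789 CPM in M10 libraries, against 179, 209.7 and 194 CPM in Vehicle libraries, and the scaffold Tjp1 (ZO-1) rose by 0.79, with 13 of 22 genes higher and 5 lower.

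Defence genes of the mucosa moved both ways: 12 of 28 tested genes fell and 8 rose, or 8 and 6 with the set term. Over all tested genes 33.3% fell and 31.2% rose, so these counts do not set the list apart. Reg3g, an antibacterial lectin, had 144, 159.6 and 154 CPM in M10 libraries, against 646, 638 and 685 CPM in Vehicle libraries (log2 -2.11, SE 0.05, edgeR adjusted p = 2.2e-29). Pigr, which carries IgA to the lumen, had 503, 518 and 537 CPM in M10 libraries, against 2279.8, 2203 and 2218 CPM in Vehicle libraries, 4.3-fold lower, and Dmbt1, a scavenger glycoprotein, had 4.36, 5.21 and 7.08 CPM in M10 libraries, against 222, 199 and 227 CPM in Vehicle libraries, 39.5-fold lower. Nox1, an epithelial NADPH oxidase, had no count in M10 and 3.44, 4.92 and 4.73 CPM in Vehicle, at least 33.1-fold lower. Each of them was lower in every M10 library than in any Vehicle library. Il18, an epithelial cytokine, rose (72.6, 80.7 and 78.6 CPM in M10 and 19.7, 18.9 and 20.6 CPM in Vehicle). Duox2, an oxidase gene, was not called (log2 0.14, edgeR adjusted p = 0.547). Saa1 and Lcn2 also fell (log2 -5.70 and -5.03), but both lost the call with the library set as a term, and were among 34 of 358 named genes with a call that did so, with Fosb, Defa24, Isg15 and Irf1 among the others. The remaining 324 were called in the same direction.

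**Figure D4:**
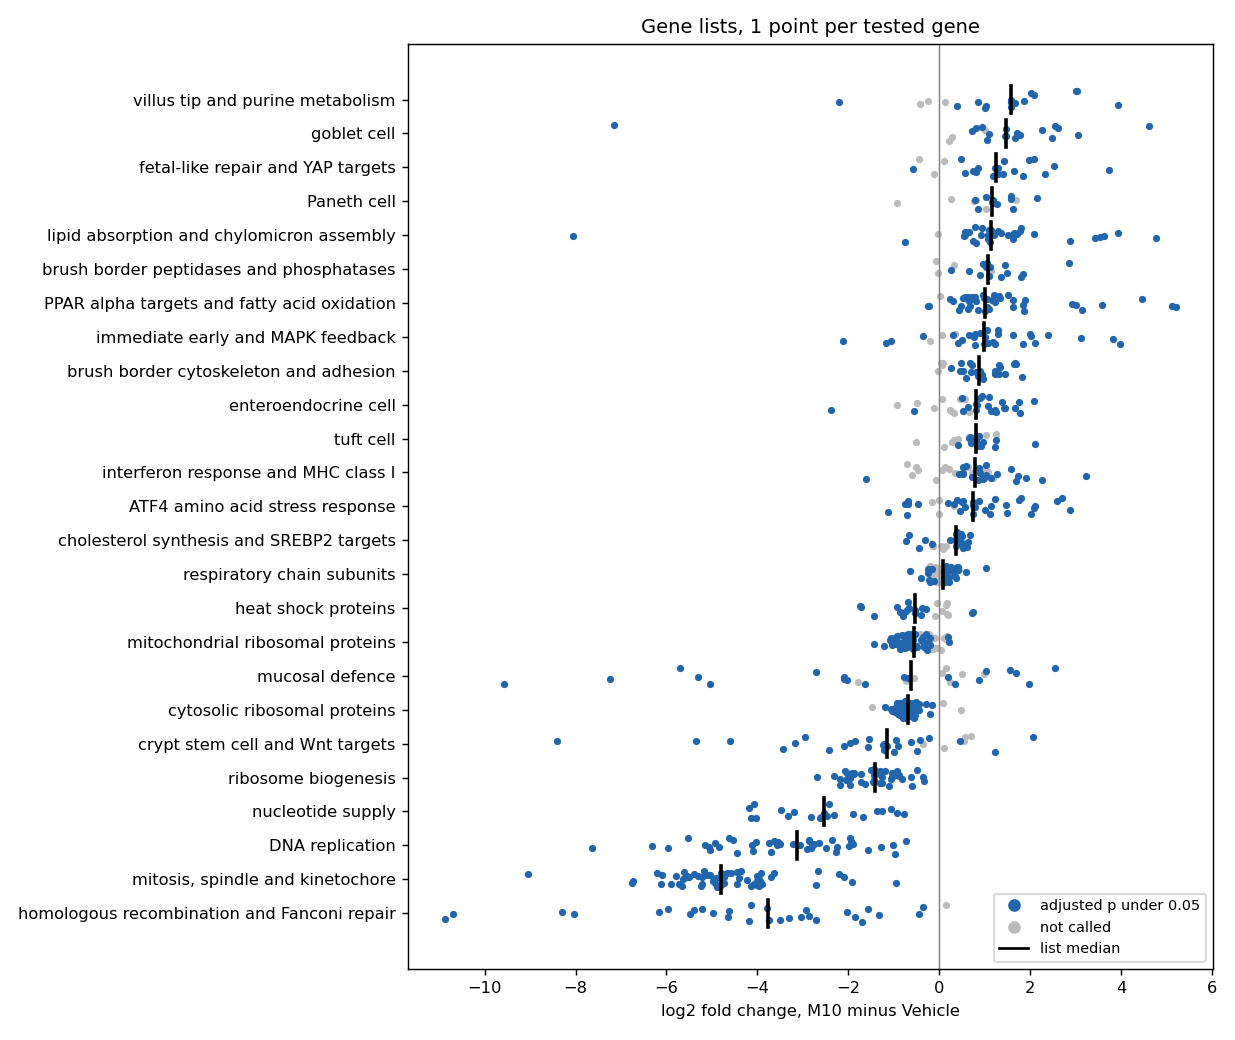
Log2 of M10 over Vehicle for the tested genes of 25 lists, 1 point per gene, blue where called and grey where not, with a bar at each list's median and a line at 0 (for genes with no count in M10 the point is the fitted value and no bound). Mitotic, replication and ribosome biogenesis genes lie left of 0, and lipid absorption, fatty acid oxidation, goblet cell and villus tip genes lie mostly right of it.

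Set against the other pools, M10 had the lower level of mitotic genes. Against M90, which shares its library set but had more symbols at 1 count, 5428 genes differed (41.2%). Of these, 2629 were higher in M10 (20% of tested genes) and 2799 lower (21.3%). Against H10, which lies in the other set, 4779 genes differed (36.3%), 2394 higher in M10 (18.2%) and 2385 lower (18.1%). Mitotic genes were lower in M10 in 57 of 58 cases against M90, with a median of -2.43, and in 58 against H10, with a median of -2.37. The medians over all tested genes were -0.04 against M90 and -0.02 against H10. Bub1, a kinase of the spindle checkpoint, averaged 0.326 ± 0.249 CPM in M10, 5.05 ± 1.47 CPM in M90 and 5.39 ± 0.482 CPM in H10 (SD, n = 3 each), against 33.6 ± 2.98 CPM in Vehicle. The kinetochore genes Ndc80 and Cenpf and the spindle genes Kif2c and Ckap2l were the next falls against M90 among genes with at least 5 CPM in the higher group, at -3.98, -3.66, -3.39 and -3.38. Replication genes were lower in 38 of 44 cases against M90 and 38 against H10, and cytosolic ribosomal protein genes in 78 and 79 of 82.

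Among the vitamin D genes, Cyp24a1 separated the mouse-like pools most. Of the 9 tested genes of that list, 5 were higher in M10 than in M90, 1 was lower and 3 were not called. Cyp24a1 averaged 493 ± 22.3 CPM in M10, 199 ± 20.1 CPM in H10 and 0.564 ± 0.233 CPM in M90 (SD, n = 3 each), the last close to Vehicle. The differences were 9.77 against M90 (SE 0.13, edgeR adjusted p = 3.58e-32) and 1.31 against H10 (SE 0.069, edgeR adjusted p = 6.29e-16). S100g (1.84), Atp2b1 (1.31) and Cyp3a11 (1.64), and Slc30a10 (1.43) of the metal list, were also higher in M10 than in M90, whereas Vdr was lower (-0.33). Against Vehicle, S100g and Cyp3a11 rose by 4.63 and 3.23 in M10, more than they exceeded M90. Fabp6 averaged 7316 ± 332 CPM in M10, 10591 ± 124 CPM in M90 and 7335 ± 381 CPM in H10, lower in M10 than in M90 (log2 -0.53, SE 0.099, edgeR adjusted p = 0.00113), while its difference from H10 was not called (edgeR adjusted p = 0.981), with a confidence interval of -0.22 to 0.22. Nr0b2 and Slc51b were likewise lower in M10 than in M90, at -0.69 and -0.21, and Fgf15 was higher (0.44). Slc10a2 averaged 141 ± 22.3 CPM in M10, 44.6 ± 4.8 CPM in M90 and 69.99 ± 4.91 CPM in H10, higher in M10 than in either (1.67 and 1.02).

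PPARα targets were lower in M10 than in M90. Against M90, 28 of 43 genes of fatty acid oxidation were lower in M10 and 2 higher. Cyp4a10 averaged 7.82 ± 2.13 CPM in M10 and 56.6 ± 13.1 CPM in M90 (log2 -2.86, SE 0.21, edgeR adjusted p = 6.91e-10). Fabp1 was lower in M10 too (-0.97). Against H10, 23 of these genes were higher in M10 and 5 lower. Respiratory chain subunits were lower in M10 than in M90 in 51 of 76 cases. The ATF4 list was higher in M10 than in M90 in 26 of 36 cases and than in H10 in 9.

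Other groups were higher in M10 than in both pools. Goblet cell genes were higher in 14 of 21 cases against M90 and 16 against H10, brush border cytoskeleton genes in 23 and 24 of 28, fetal-like repair genes in 20 and 20 of 24, and immediate early genes in 25 and 22 of 32. Psca, a GPI-anchored surface protein, averaged 35.3 ± 5.92 CPM in M10, 5.92 ± 1.41 CPM in M90 and 4.08 ± 0.566 CPM in H10, the largest named rise against M90 after Cyp24a1 (log2 2.58, SE 0.19, edgeR adjusted p = 6.75e-14). Pmp22, a membrane protein, was 2.41 higher than in M90, and M10 c was its lowest M10 library. Among genes named for their size of change, which had to reach 5 CPM in the higher group, Fkbp5 (3.49), Cyp27a1 (3.19), Psca (3.11), Sgk1 (2.80) and Apoc2 (2.66) were higher than in H10. By the same rule the falls against H10 were Saa2, Saa1 and Mup7, which split with the library set, and the mitotic genes Pbk (-4.18) and Bub1 (-4.11). Liver transcripts were lower in M10 in 17 of 22 cases against H10, in 15 against Vehicle and in 0 against M90. Paneth, enteroendocrine and tuft cell lists were lower or not called for most of their genes: 3, 5 and 1 of 17, 33 and 23 were higher in M10 than in M90.

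**Figure D5:**
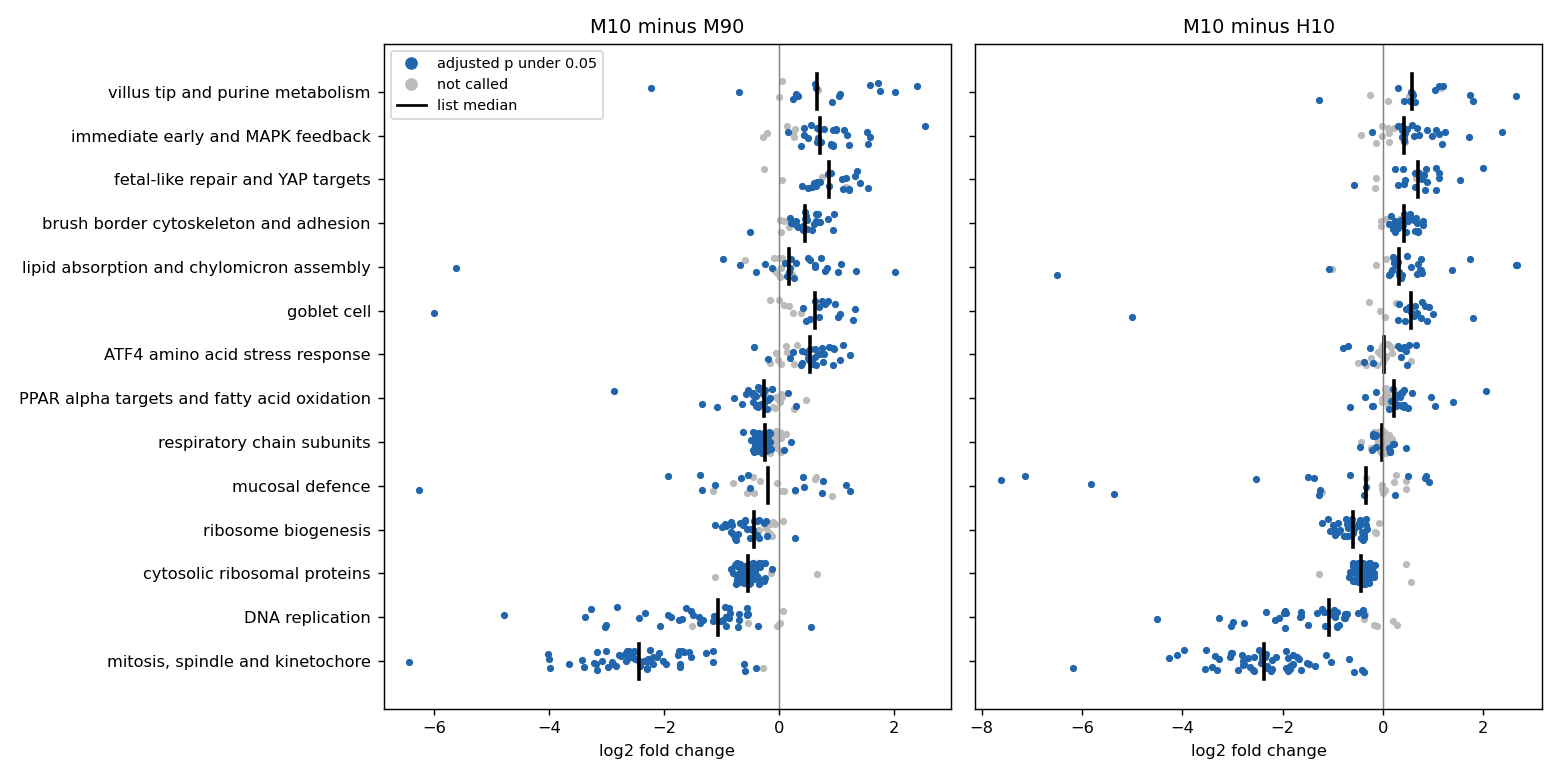
Log2 of M10 over M90 (left panel) and of M10 over H10 (right panel) for the tested genes of 14 lists, 1 point per gene, coloured where called, with a bar at each list's median and a line at 0. Mitotic and most replication genes lie left of 0 in both panels, and fatty acid oxidation genes lie mostly left of 0 against M90 and mostly right of it against H10.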

How the data were processed

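The authors deposited a table of raw read counts per gene symbol for each library, and these counts were used as deposited. Per the submitters' processing notes the reads passed bcl2fastq 2.17, STAR 2.5.2b and featureCounts 1.5.0-p3 on mm10 (GRCm38); the strand setting is not given in the sources used here, so overlapping and antisense genes, and near-identical copies, are uncertain. Genes were filtered with filterByExpr and scaled by TMM, and all 15 libraries were fitted together, with 1 mean for each of 5 groups and 10 degrees of freedom left for the spread (edgeR 4.0.16, limma 3.58.1 and R 4.3.3; two-sided quasi-likelihood F tests, robust shrinkage, Benjamini-Hochberg over 13159 genes; common coefficient of variation 0.0881). Pandas 2.3.3 and matplotlib 3.10.9 made tables and figures, and the fit was tested on simulated data. CPM are effective-library values. Genes with no count in M10 were set at a floor of 3 counts per library, and depth limits precision there: floors cover counting error only, while the interval given for Fabp6 is from the fit and covers the spread between libraries. Named were 10 genes of bile acid and vitamin D signalling, the 12 largest rises and falls with a call, no overlap between groups and at least 5 CPM in the higher group (the 5 largest against M90 and H10), passing over unnamed predicted genes, liver and mesenchymal markers, and set markers plus up to 4 further called genes per list. Other genes named were list members that moved against their list, or St6galnac1, Pla2g4c and Nox1 for their 0 counts. Spdef and Abcg2, which rose, were named outside these rules. All of these were chosen after their values were seen. The members and the 60 gene lists were chosen with earlier results of these data known. Some named genes are not reported here. Sequences are RefSeq promoters of GRCm38.p6, with an entry for 9799 tested genes matched by symbol; gene coordinates are the annotation's. Replicate letters did not pair libraries: residuals of same-letter M10 and Vehicle libraries correlated at -0.00401 to 0.0232. No 2 libraries of a group were duplicates. Alternatives were RLE, upper-quartile and total-count scaling, 2 other filters, no robust shrinkage, limma-voom, DESeq2 1.42.0, a replicate block, the 2 groups alone, a library set term and each library left out.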

Additional observations from a re-analysis of the deposited data

Results flagged for a closer look

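Among the named genes, 7 moved in opposite directions against Vehicle in M10 and in another pool, each direction called, and M10 and that pool differed in the direct test. Both differences are against the same Vehicle libraries. Slc10a2, the apical bile acid importer, differed between M10 and M90 by 1.67 (edgeR adjusted p = 1.66e-07), with 1.20 in M10 and -0.47 in M90 against Vehicle. For Clca6, of the chloride channel regulator family, the difference from M90 was 2.49 (edgeR adjusted p = 4.47e-12), with 1.93 in M10 and -0.57 in M90 against Vehicle. Egr1, an immediate early factor, differed from M90 by 1.22 (edgeR adjusted p = 5.61e-14), with 1.0 in M10 and -0.22 in M90 against Vehicle. In Sphk1, sphingosine kinase, M10 minus M90 was -1.05 (edgeR adjusted p = 1.38e-07), with -0.38 in M10 and 0.68 in M90 against Vehicle; its M10 call was lost without M10 b and without Vehicle c. Nfe2l2, which encodes NRF2, differed from M90 by -0.35 (edgeR adjusted p = 6.72e-09), with -0.19 in M10 and 0.15 in M90 against Vehicle, and from H10 by -0.58 (edgeR adjusted p = 2.93e-14), with -0.19 in M10 and 0.39 in H10 against Vehicle. Sphk1 and Nfe2l2 also lost their M10 call with the library set as a term. The differences of M90 and H10 from Vehicle were fitted with TMM scaling only. TMM factors were 1.08 to 1.09 in Vehicle and 0.967 to 0.984 in M90, an offset large enough to bear on the rise of 0.15 of Nfe2l2 in M90. That rise was not tested under other scalings. The difference from H10 was 3.49 (edgeR adjusted p = 5.38e-22), with 2.15 in M10 and -1.34 in H10 against Vehicle for Fkbp5, and 1.40 (edgeR adjusted p = 6.45e-07), with 1.04 in M10 and -0.36 in H10 against Vehicle for Guca2b, uroguanylin of villus cells. M10 and M90 share a library set, while H10 lies in the other, so in the H10 differences pool and set cannot be told apart. M10 and M90 still differed in symbols at exactly 1 count, with 213 to 246 in M10 and 466 to 603 in M90. Beyond the Rn45s count and depth of H90 a, groups of 3 libraries were not examined for single libraries that stand apart.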

How the results depend on the processing

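The count of calls for M10 against Vehicle, 8482, was 8504 with RLE scaling, 8654 with DESeq2, 8696 with limma-voom, 8222 with the 2 groups alone, 8510 without the low-count filter, 8379 with a filter of 1 CPM and 8489 without robust shrinkage. With a replicate block it was 8483, and 5491 against M90 and 4827 against H10; no call of a named gene changed. Leaving out each library gave 7966 to 8278 calls against Vehicle, 4545 to 5217 against M90 and 3957 to 4619 against H10. Scaling by total count gave 2618 rises against Vehicle, and 1358 rises and 4050 falls against H10; rises made up 30.3% of the calls against M90 and 25.1% against H10 by total count, 34.6% and 35.5% by upper quartile, and 48.4% and 50.1% by TMM. Scaling by total count turned Vdr to -0.0735, Srebf2 to -0.23, Gclc to -0.26, Map1lc3b to -0.18, Per2 to -0.0297, Hnf4g to -0.22 and Gata4 to -0.17. Without a turn of sign, it called Cdkn1b, Hsp90b1, Ahr and Nr1i3 lower, and 12 named genes lost their call. With the library set term 2875 genes were called lower, against 4379 without it, and the term turned Fosb to -3.63, Mup7 to 0.94, Ly6a to -0.0370, Col1a1 to -2.65, Mup20 to 0.64 and Ambp to 0.14; this term rests on H90, with 1 library in one set and 2 in the other, which raises the error of every value in that fit. Leaving out a library changed the call of 11 named genes: Bdh1, Acaca, Sphk1, Cyp1a2, Gapdh, Ly6a, H2-Ab1, Duox2, Slc28a2, Per2 and Fn1. Other causes were not tested.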

Other observations

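Antigen presentation and interferon genes were mostly higher in M10 than in Vehicle. H2-K1 and H2-D1, classical MHC class I genes with close paralogs, had 1059, 1064 and 1019 CPM in M10 libraries, against 459, 497 and 483 CPM in Vehicle libraries for H2-K1 and 214, 235 and 218 CPM in M10 libraries, against 109, 119 and 117 CPM in Vehicle libraries for H2-D1. Irf8, an interferon regulatory factor, fell by 1.61 on the log2 scale. In the list 21 of 36 tested genes rose and 1 fell, or 14 and 1 with the library set as a term and 15 and 4 by total count. Of 4 tested MHC class II genes 1 was called, H2-Ab1, at 2.64, 1.11 and 0.815 CPM in M10 and 0.583, 0.342 and 0.344 CPM in Vehicle, and it lost its call without M10 a, Vehicle b or Vehicle c. Circadian clock genes rose in 12 of 18 cases and fell in 1 (10 and 4 by total count). Conjugating enzymes rose in 17 of 30 cases and fell in 9, with Sult1d1, a sulfotransferase, at 771, 792 and 837 CPM in M10 and 292, 282 and 271 CPM in Vehicle; scaling by total count gave 12 and 13. Among aryl hydrocarbon receptor genes 2 of 6 tested genes rose and 2 fell, and Cyp1a1 had 4.52, 6.32 and 9.62 CPM in M10 libraries, against 1.63, 1.06 and 1.68 CPM in Vehicle libraries. Of 30 sphingolipid genes 13 were higher and 13 lower, or 13 and 8 with the set term and 10 and 15 by total count. Ugcg, which makes glucosylceramide, had 363, 340.4 and 337 CPM in M10 libraries, against 145, 149 and 147 CPM in Vehicle libraries, and Acer1, a ceramidase, had 5.86, 8.07 and 8.1 CPM in M10 libraries, against 39.8, 39 and 46.6 CPM in Vehicle libraries. Of the markers of other tissues, 1 of 4 tested mesenchymal genes rose and 1 fell, none of 4 immune, 3 endothelial and 1 stomach genes tested was called, and of 3 tested colon genes 1 rose and 2 fell.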
